A study of Homo sapiens with 6 samples.

Results

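The insulin-like growth factor (IGF) binding proteins and the receptor IGF2R were described in Huh7-R cells, a sorafenib-resistant derivative of the hepatocellular carcinoma line Huh7, after treatment with the kinase inhibitor fostamatinib or its solvent DMSO. Members were chosen by symbol from a list of 8 genes, namely IGFBP1 to IGFBP6, IGFALS and IGF2R. Of these, 5 had a row among the 16305 genes of the tables: IGFBP1, IGFBP3, IGFBP4, IGFBP6 and IGF2R. IGFBP2, IGFBP5 and IGFALS had no row under their symbol or Ensembl identifier and were not analysed here. RNA was sequenced from 3 samples treated with 2 µM fostamatinib for 24 h and 3 DMSO samples, whose labels carry the same time and, for the vehicle too, the same 2 µM. Both groups were the same resistant cells, labelled Huh7SR, which the study selected by long exposure to sorafenib and kept without sorafenib for some days before its experiments. The resistant pool is a single cell line with no other liver cells and no growth hormone or insulin axis of an animal around it. The labels say that treatments were made in triplicate but not whether from separate cultures, so the p-values may measure only technical spread.

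IGF1 and IGF2 circulate almost wholly bound to IGF binding proteins, which carry them, prolong their life and keep them from the signalling receptor IGF1R. In serum the main complex holds IGFBP3 (or IGFBP5) together with the acid-labile subunit encoded by IGFALS, and proteases release the growth factor by cutting the binding protein. IGF2R does not signal like IGF1R: it takes up IGF2 for destruction in lysosomes and, as the cation-independent mannose 6-phosphate receptor, sorts newly made lysosomal enzymes. Liver is the main source of circulating IGF1 and makes several of the binding proteins, among them IGFBP1, whose transcription insulin lowers.

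The samples held 13303451 to 15272737 reads on the genes kept by the authors' filter. The tables give log2 CPM, that is, reads per library size on a log2 scale, and every one of them could be turned back into whole reads, to within 0.05 of a whole number. Between replicates the squared differences were 1.65 to 3.75 times what counting error gives, and between the groups 39.8 to 44.5 times. The liver origin of the line was visible in its markers: all 10 hepatocyte and hepatoma markers, ALB, AFP and APOB among them, had a row. Their summed level was 5106 to 5442 CPM in the DMSO samples and 6930 to 7334 CPM after fostamatinib. Of the 10, 10 were called higher, with a median of 0.52 on the log2 scale. Over all genes 23.3% were called higher and 24.5% lower, shares that stand beside the other marker counts below too. The largest rises were those of APOA1, by 3.19 from only 20, 22 and 23 reads with DMSO, and HNF4A, by 1.02. Of 6 immune markers only CD14 had a row, at 2 to 7 reads per sample, and PTPRC, the pan-leukocyte marker, had none. Endothelial markers were represented by PECAM1 and LYVE1 (2 of 6, both called higher), with 105 to 186 reads together, while CDH5, VWF and KDR had no row. Stellate cell and fibroblast markers had rows for 5 of 8 (none for DCN, ACTA2 and LRAT), and 2 were called higher and 1 lower. Their summed level was 297.5 to 305.6 CPM in DMSO and 307.9 to 311.5 CPM after fostamatinib. COL1A2 was higher by 0.37 and LUM lower (-0.40) on the log2 scale. PDGFRB was higher by 0.95, on only 28, 28 and 40 reads with DMSO and 63, 56 and 55 with fostamatinib. In bulk RNA, fewer cells making a transcript and less of it per cell cannot be told apart.

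Binding protein transcripts moved in different directions after fostamatinib. IGFBP3 was 2.07-fold lower, IGFBP4 rose 1.34-fold and IGFBP1 1.31-fold, whereas IGFBP6 and IGF2R did not pass the test. With limma and Benjamini-Hochberg adjustment over all genes, 3 of the 5 passed the threshold of 0.05, 2 higher and 1 lower. This count stands beside a background of 47.8% of all 16305 genes called, 23.3% higher and 24.5% lower, so 3 calls in 5 are near the share in the whole table. The median log2 fold change of the 5 genes was 0.34, against 0.0015 over all genes. In exact two-sided permutation tests of single genes, IGFBP1, IGFBP3, IGFBP4 and IGFBP6 each reached p = 0.1, the smallest that 3 samples against 3 allow, and IGF2R p = 0.6.

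**Figure D1:**
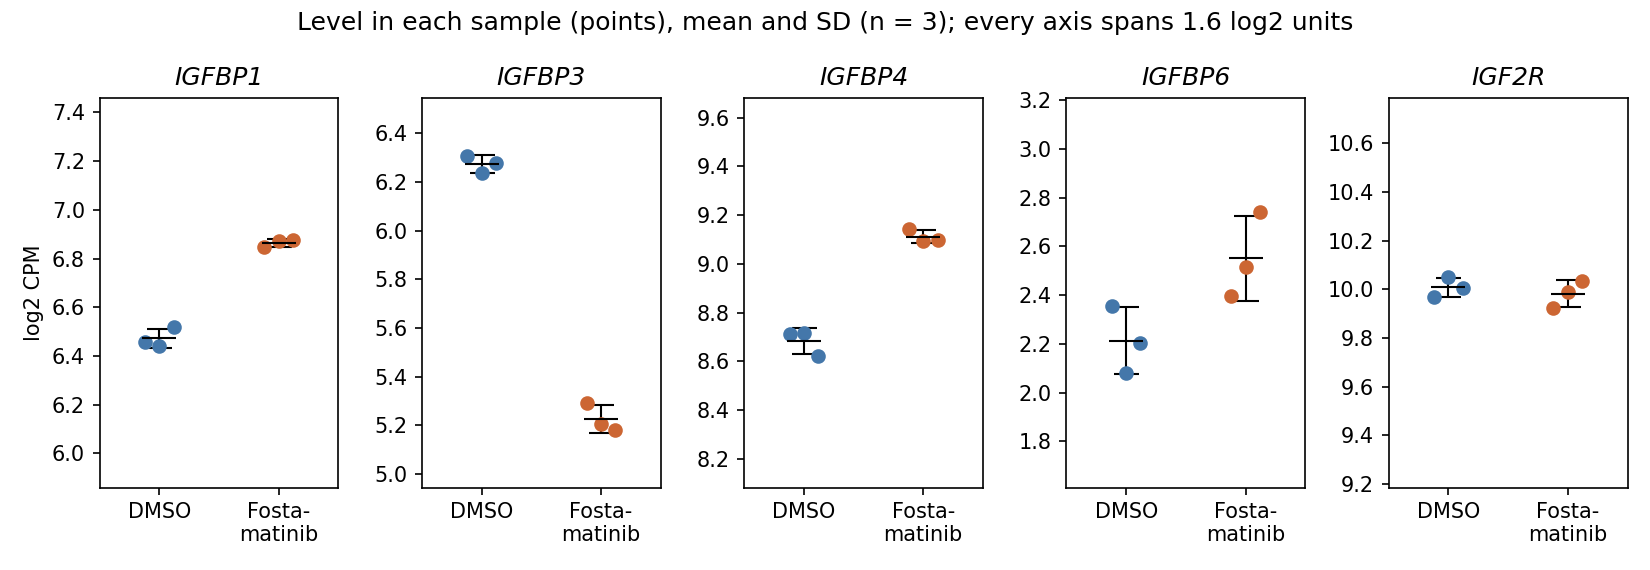
Level of the 5 measured genes in every sample (points) in log2 CPM, with the mean and SD of 3 samples per group in black; each vertical axis spans 1.6 log2 units. The 3 fostamatinib samples lie below the DMSO samples for IGFBP3 and above them for IGFBP1, IGFBP4 and (narrowly) IGFBP6. For IGF2R the groups overlap, with the first fostamatinib sample below all DMSO samples.

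IGFBP3, the main IGF carrier of serum, (ENSG00000146674) occupies bases 45951844 to 45961473 of chromosome 7 in GRCh37, - strand. Its read counts were 1090, 1150 and 1154 with DMSO against 539, 525 and 481 with fostamatinib. On the log2 CPM scale these are 6.31, 6.24 and 6.28 against 5.29, 5.20 and 5.18. The groups were far apart: the lowest DMSO sample exceeded the highest fostamatinib sample by 0.943. Means were 6.27 ± 0.035 log2 CPM (SD, n = 3) and 5.23 ± 0.059 (SD, n = 3). By limma the log2 fold change was -1.05 with a 95% interval of -1.16 to -0.93 (SE 0.056, adjusted p = 1.80e-17). By size of change IGFBP3 ranked 1344 of the 16305 genes, and it was the only one of the 5 to pass 2-fold, as 7.13% of all genes did with a call.

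IGFBP4, a binding protein that holds IGFs away from their receptor until it is cut by the protease PAPP-A, lies on chromosome 17 from 38599702 to 38613977 on the + strand (ENSG00000141753). Its reads numbered 5782, 6419 and 5851 with DMSO, compared with 7768, 7778 and 7267 with fostamatinib. In log2 CPM the DMSO samples were at 8.71, 8.72 and 8.62, and fostamatinib gave 9.14, 9.09 and 9.10, without overlap. Mean levels were 8.68 ± 0.054 (SD, n = 3) and 9.11 ± 0.027 (SD, n = 3), which limma put at a rise of 0.43 (95% interval 0.35 to 0.50, SE 0.036, adjusted p = 3.00e-12). It ranked 239 of 16305 genes by mean log2 CPM, a scale that favours long transcripts.

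IGFBP1, the small liver binding protein that rises in fasting, lies on chromosome 7 from 45927959 to 45933259 on the + strand (ENSG00000146678). The DMSO samples had 1212, 1326 and 1361 reads and the fostamatinib samples 1582, 1670 and 1557. These correspond to 6.46, 6.44 and 6.52 log2 CPM with DMSO and 6.85, 6.87 and 6.88 with fostamatinib. No fostamatinib sample reached down to the DMSO range, the gap being 0.329. On the log2 scale it rose by 0.39 (limma: 95% interval 0.30 to 0.49, SE 0.046, adjusted p = 7.76e-09), from 6.47 ± 0.040 (SD, n = 3) to 6.87 ± 0.017 (SD, n = 3). The 10 hepatocyte markers were higher in the same samples, and their part in the rises of IGFBP1 and IGFBP4 was not tested.

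IGFBP1 and IGFBP3 are neighbours on chromosome 7, on opposite strands with 18584 bases between their annotated ends, and no other gene with a row lies between them. Their transcripts moved in opposite directions. The ratio of IGFBP1 to IGFBP3 reads within a library, in which any scaling of the libraries cancels, was 1.11, 1.15 and 1.18 with DMSO and 2.94, 3.18 and 3.24 with fostamatinib. It was thus 2.71 times as high, with no overlap between groups (two-sided exact permutation p = 0.1, adjusted p = 0.143 over the 10 ratios compared). IGFBP4 reads outnumbered IGFBP3 reads by 5.07 to 5.58 times with DMSO and by 14.4 to 15.1 times with fostamatinib (exact permutation p = 0.1, adjusted p = 0.143). The ratio of IGFBP4 to IGFBP1 was 4.299 to 4.84 with DMSO and 4.66 to 4.91 with fostamatinib, so the groups overlapped (exact permutation p = 0.8).

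The stretches before the transcription starts of the gene that fell and of the one that rose most are shown to let their base composition be compared. They are the 250 bases before the RefSeq start, from a table of GRCh38.p14, and each matched GRCh37 exactly at 1 place, chr7:45960872-45961121 on the - strand for IGFBP3 and chr17:38599452-38599701 on the + strand for IGFBP4. In GENCODE the IGFBP3 stretch lies in an intron of a longer transcript of the gene and in no exon. Capitals mark matches to 3 motifs on either strand, which do not overlap here. One is the GC box, spelled GGGCGG, which binds SP1-type factors. Another is the core of the aryl hydrocarbon receptor element, spelled GCGTG. The last is the TATA box, searched as TATAAA.
IGFBP3: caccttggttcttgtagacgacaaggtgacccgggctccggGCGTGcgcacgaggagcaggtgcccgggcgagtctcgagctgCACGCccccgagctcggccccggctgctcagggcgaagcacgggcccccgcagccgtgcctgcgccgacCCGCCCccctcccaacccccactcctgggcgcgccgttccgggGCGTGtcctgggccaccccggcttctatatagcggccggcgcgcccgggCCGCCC
IGFBP4: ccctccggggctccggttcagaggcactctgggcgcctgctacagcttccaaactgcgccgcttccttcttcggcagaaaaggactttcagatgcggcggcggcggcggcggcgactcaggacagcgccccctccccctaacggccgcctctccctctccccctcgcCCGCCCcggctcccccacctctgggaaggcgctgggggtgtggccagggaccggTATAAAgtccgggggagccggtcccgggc

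Of the 10 motifs searched, IGFBP3 held GC boxes at 98 and 6 bases before the start and the receptor core at 209, 167 and 55 bases. IGFBP4 held a GC box at 83 bases and the TATA box at 29 bases before the start. Only the exact letters TATAAA were searched for the TATA box. The IGFBP3 stretch holds the variant spelling tatata near its end, which this search did not count. Over all 35116 windows of the same length in the table, 42.6% held the GC box, 32.2% the receptor core and 10.7% the TATA box. GC content was 76% for IGFBP3 and 71.6% for IGFBP4, against a median of 58% over all windows. The other 7 motifs had no match in either stretch. They were the FOXO motif TGTTTAC (in 2.98% of all windows), the AP-1 motif TGANTCA (6.57%), the cyclic AMP element TGACGTCA (1.65%), the CCAAT box (32.0%), the ETS motif CCGGAAGT (3.42%), the TEAD motif GGAATG (11.9%) and the STAT motif TTCNNNGAA (6.57%). The window of IGF2R was the richest of the 4 found, with 79.2% GC and the GC box at 6 positions, some of which overlap. The window of IGFBP6 held the GC box and the FOXO and TEAD motifs at 1 position each. That window, chr12:53491201-53491450 in GRCh37, lies mostly inside the gene as GENCODE places it, from base 53491220. IGFBP1 had no window in the table. A match of letters is a description and not a bound site.

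IGFBP6, which prefers IGF2 over IGF1, lies on chromosome 12 from 53491220 to 53496129 on the + strand (ENSG00000167779) and was the least abundant of the 5. Only 70, 64 and 68 reads were counted with DMSO, and 72, 81 and 88 with fostamatinib. The log2 CPM values were 2.35, 2.08 and 2.20 against 2.40, 2.52 and 2.74. The groups did not overlap, but the gap between them was only 0.043, and over all genes 54.1% had groups that did not overlap. The difference by limma was 0.34 on the log2 scale (95% interval 0.026 to 0.65, SE 0.15, adjusted p = 0.069). Without the first fostamatinib replicate it was 0.41 with an adjusted p of 0.0473. At this depth a change of the size seen for IGFBP1 or IGFBP4 lies within the interval of IGFBP6.

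IGF2R lies on chromosome 6 from 160390114 to 160534539 on the + strand (ENSG00000197081) and gave the most reads of the 5 genes. Read counts reached 13823, 16164 and 15259 with DMSO and 13349, 14471 and 13880 with fostamatinib. In log2 CPM these were 9.97, 10.05 and 10.004 against 9.92, 9.99 and 10.03, with the groups intermingled. Means of 10.01 ± 0.039 (SD, n = 3) and 9.98 ± 0.055 (SD, n = 3) differed by -0.027 (limma: SE 0.034, adjusted p = 0.551). The 95% interval, -0.096 to 0.043, corresponds to 0.936 to 1.03 of the DMSO level. Without the first fostamatinib replicate the difference was 0.0025. The pseudogene CHP1P2 shares 571 exonic bases with IGF2R on the same strand, and reads there could be assigned to neither or either; it held 58 to 78 reads per sample. AIRN, the antisense transcript of this locus, had no row.

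**Figure D2:**
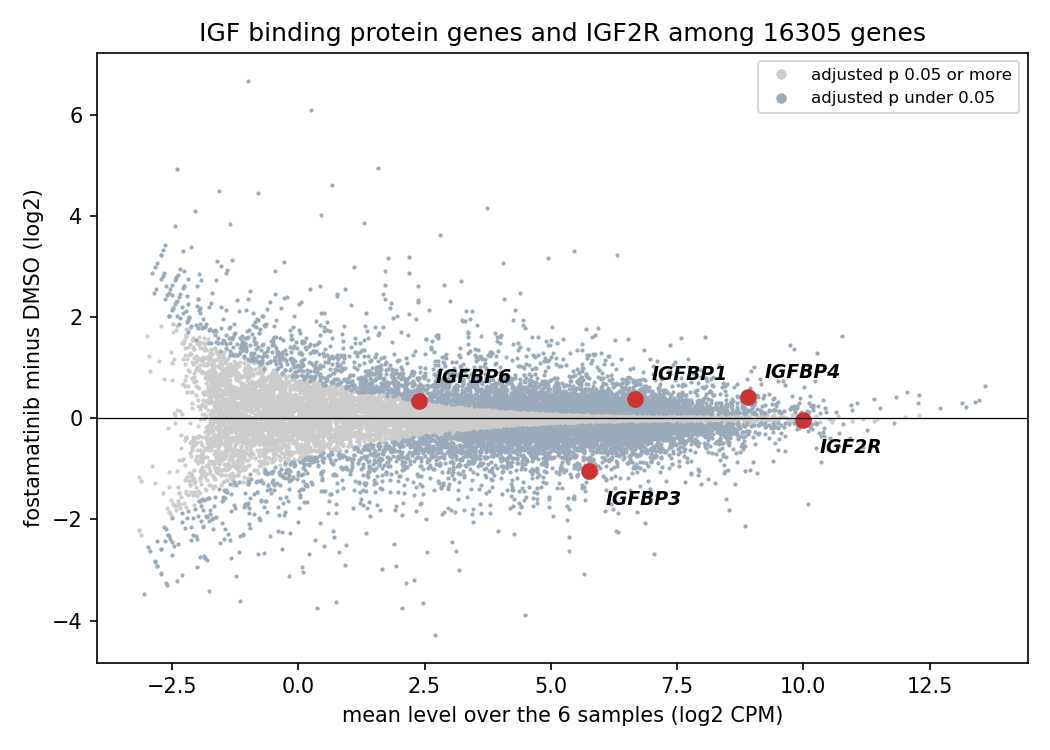
Mean level over the 6 samples (horizontal, log2 CPM) against fostamatinib minus DMSO (vertical, log2) for all 16305 genes, with the 5 genes as red points. IGFBP3 lies near -1.05 in the lower part of the cloud, IGFBP1 and IGFBP4 near 0.4, and IGF2R on the zero line among the 75 genes with the highest mean level.

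Levels of different genes were compared per kilobase of annotated exons. With DMSO the order was IGFBP4 (7.54 log2 CPM per kb), IGFBP1 (5.76), IGF2R (5.51), IGFBP3 (4.08) and IGFBP6 (1.78). After fostamatinib it was IGFBP4 (7.97), IGFBP1 (6.15), IGF2R (5.48), IGFBP3 (3.04) and IGFBP6 (2.12). Neighbours in this order did not overlap between samples of a group. The place of IGF2R depends on the length used. Its joined exons span 22613 bases and its longest transcript 14231, and per kilobase of the longest transcript IGF2R (70.5 to 74.4 CPM per kb) stood above IGFBP1 (54.3 to 57.2) with DMSO and overlapped it after fostamatinib (68.2 to 73.6 against 71.9 to 73.4).

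The 4 binding protein transcripts together held 261.0 ± 5.49 CPM per kb (SD, n = 3) with DMSO and 334.3 ± 3.87 (SD, n = 3) after fostamatinib. IGFBP4 made up most of this sum, 71.8%, 72.4% and 70.1% with DMSO and 75.6%, 74.7% and 74.6% with fostamatinib. IGFBP3 supplied 6.54%, 6.27% and 6.67% of the sum with DMSO but 2.54%, 2.44% and 2.39% with fostamatinib. These shares depend on the length used: per kilobase of the longest transcript, IGFBP3 supplied 10.7% ± 0.323 (SD, n = 3) with DMSO and 4.15% ± 0.127 (SD, n = 3) with fostamatinib. The share of IGFBP1 was 20.7% ± 1.01 and 21.2% ± 0.480 (SD, n = 3 each), and with the longest transcripts 20.2% ± 0.947 and 21.2% ± 0.485, so that the difference was smaller than the SD of the DMSO samples by exons and larger than it by longest transcripts. The share of IGFBP6 by exons was between 1.16% and 1.49% in every sample. These shares describe 4 transcripts, since IGFBP2 and IGFBP5 were not analysed here, and they say nothing of secreted protein.

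**Figure D3:**
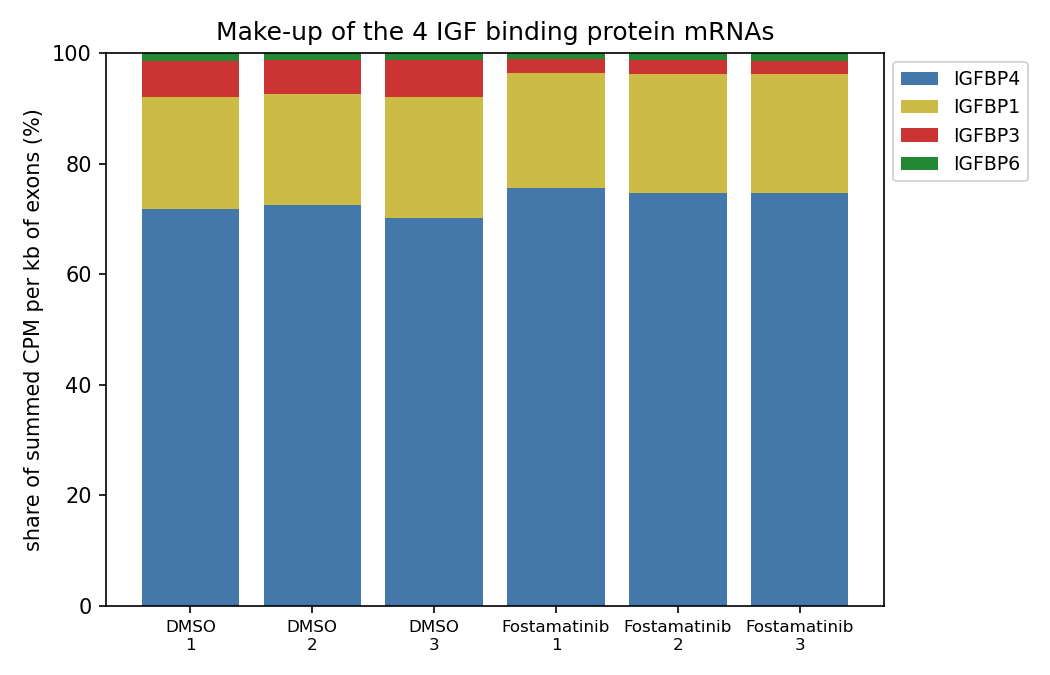
Share of each binding protein transcript in the summed CPM per kb of exons, per sample, in percent; each bar adds up to 100. The red part, IGFBP3, narrows from 6.27% to 6.67% in the DMSO samples to 2.39% to 2.54% in the fostamatinib samples, while IGFBP4 fills 70.1% to 75.6% of every bar.

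For the ligand, the signalling receptors and their docking proteins the log2 differences lay between -0.28 and 0.28. Of 12 listed genes 8 had a row, and 3 were called higher and 3 lower (over all genes 23.3% and 24.5%), with a median log2 fold change of -0.086. IGF1, INS, INSRR and IRS4 had no row. IGF2, the fetal-type growth factor, had 800, 853 and 838 reads with DMSO and 739, 773 and 759 with fostamatinib, a log2 difference of -0.044 (95% interval -0.16 to 0.068, adjusted p = 0.541 from limma). Reads of IGF2 can be shared with the readthrough gene INS-IGF2 and, where strand was not used in counting, with the antisense gene IGF2-AS. IGF1R, the signalling receptor, rose by 0.21 (SE 0.044, adjusted p = 1.10e-04) and INSR, the insulin receptor, by 0.26 (SE 0.049, adjusted p = 3.21e-05). The docking proteins of these receptors parted, since IRS2 rose by 0.28 (adjusted p = 4.70e-05) and IRS1 fell by 0.18 (adjusted p = 2.54e-03). SHC1, an adaptor toward RAS, fell by 0.28 and GRB10, an adaptor that restrains both receptors, fell by 0.27. The value for GRB14 was -0.13 (adjusted p = 0.418).

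Larger changes were found in the proteases that cut IGF binding proteins and in the inhibitors of those proteases. Of 12 listed genes 9 had a row, 7 were called lower and 1 higher, against 24.5% lower and 23.3% higher over all genes, and the median log2 fold change was -0.75. PAPPA, which encodes the IGFBP4 protease PAPP-A, gave 814, 948 and 899 reads with DMSO but 309, 323 and 324 with fostamatinib. Every fostamatinib sample lay far below every DMSO sample, and limma put the log2 fold change at -1.38 (SE 0.064, adjusted p = 2.32e-19). STC2 and STC1 encode stanniocalcins, secreted inhibitors of PAPP-A, and these fell too. STC2 went from 3343, 3749 and 3363 reads to 777, 804 and 748, or -2.08 on the log2 scale (limma: SE 0.046, adjusted p = 1.29e-28). STC1 went from 435, 546 and 553 reads to 150, 145 and 133, or -1.74 on the log2 scale (SE 0.086, adjusted p = 1.40e-18). As these inhibitors stand in the list of proteases, 2 of its 7 lower genes are not proteases. PAPPA2, the related protease of IGFBP3 and IGFBP5, had 102 to 116 reads with DMSO and 103 to 121 after fostamatinib, a difference of 0.12 (adjusted p = 0.459).

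Of the metalloproteinases of the list other than PAPPA and PAPPA2, MMP7 fell by 1.20 on the log2 scale, ADAM28 by 0.75, ADAM17 by 0.57 and ADAM9 by 0.16. CTSD, the lysosomal aspartic protease cathepsin D, rose by 0.30 and was the one gene of this list called higher. HTRA1, ADAM12 and PRSS2 had no row. Within libraries, the ratio of IGFBP4 to PAPPA reads was 7.10, 6.77 and 6.51 with DMSO and 25.1, 24.1 and 22.4 with fostamatinib, or 3.51 times as high. The ratio of PAPPA to STC2 was 1.61 times as high, going from 0.244, 0.253 and 0.267 to 0.398, 0.402 and 0.433. Neither ratio overlapped between groups (exact permutation p = 0.1 and adjusted p = 0.143 for each).

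**Figure D4:**
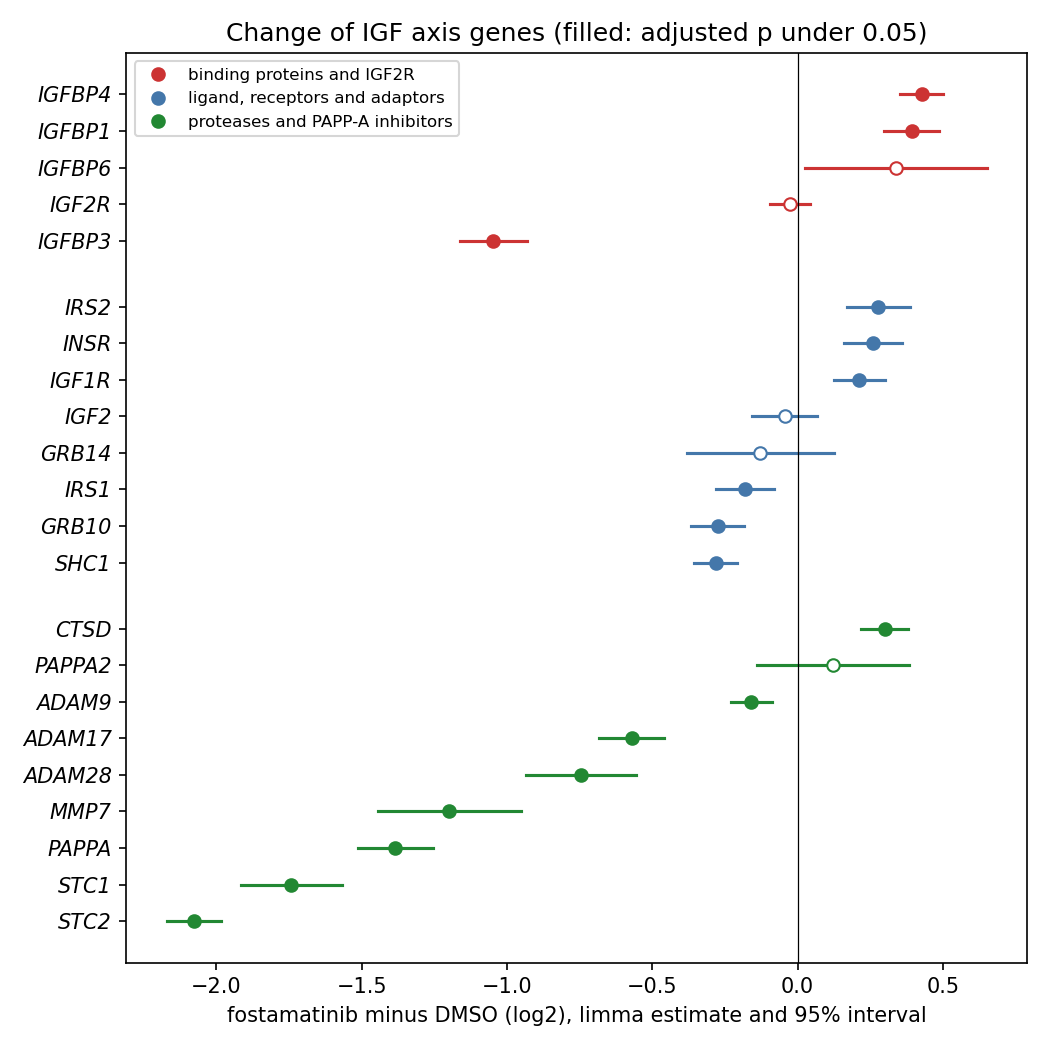
Fostamatinib minus DMSO on the log2 scale (horizontal) with its 95% interval from limma, for the 5 binding protein and IGF2R genes (red), the ligand, receptors and adaptors (blue) and the proteases with the PAPP-A inhibitors STC1 and STC2 (green); filled points have an adjusted p under 0.05. The green group reaches down to -2.08 for STC2, whereas the blue group stays between -0.28 and 0.28.

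**Figure D5:**
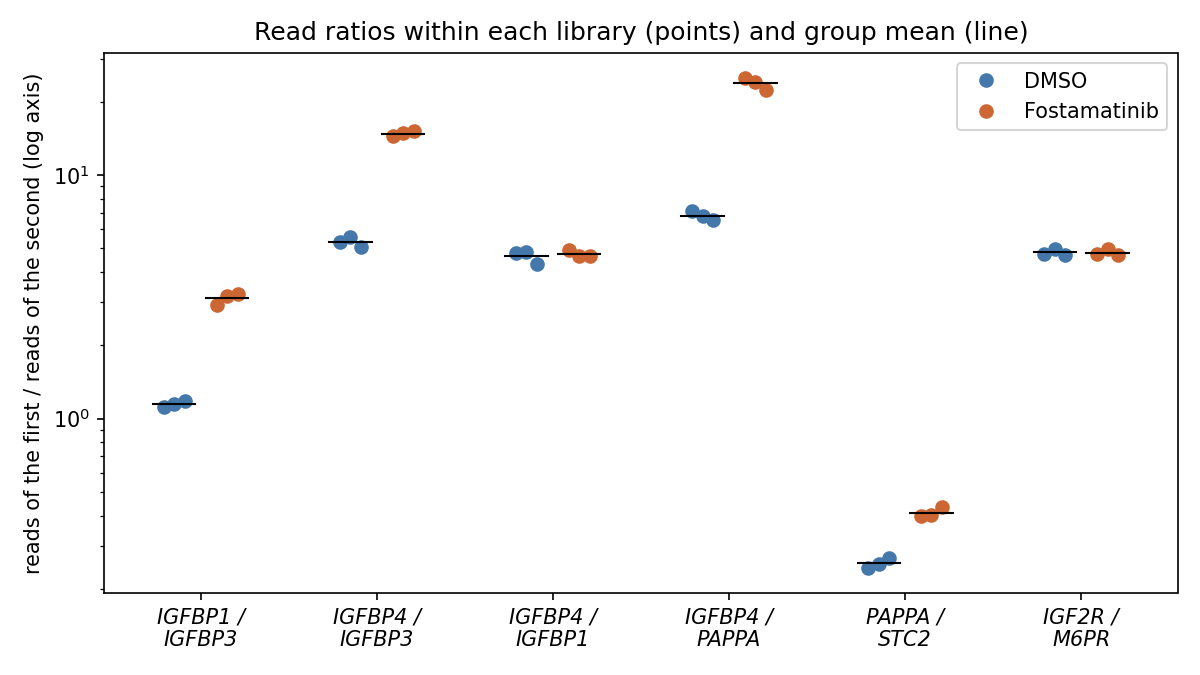
Reads of one gene divided by reads of another in the same library, on a log axis, with 3 DMSO (blue) and 3 fostamatinib (orange) samples per pair and the group mean as a line. The ratios to IGFBP3, IGFBP4 to PAPPA and PAPPA to STC2 separate the groups, while IGFBP4 to IGFBP1 and IGF2R to M6PR overlap.

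Like IGF2R, the other mannose 6-phosphate receptor did not pass the test. M6PR, the cation-dependent receptor, differed by -0.018 on the log2 scale (95% interval -0.10 to 0.067, adjusted p = 0.753), and the ratio of IGF2R to M6PR reads was 4.71 to 4.99 with DMSO and 4.68 to 4.96 after fostamatinib. Of the 14 genes listed for mannose 6-phosphate tagging and receptor sorting, 6 were called higher and 1 lower, with a median of 0.086. That makes 7 of 14 called, near the 47.8% of all genes. The largest rises were those of GNPTG, a subunit of the tagging phosphotransferase, by 0.53, and NAGPA, which uncovers the tag, by 0.40. VPS29, a retromer subunit, fell by 0.16. All 23 listed lysosomal enzymes that use these receptors had a row, and 13 were called higher and 5 lower (median 0.25), beside 23.3% and 24.5% of all genes. TPP1 rose by 0.64 and CTSA by 0.62, whereas CTSC fell by 0.79 and IDS by 0.61.

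Secreted proteins that share the N-terminal domain of the binding proteins but bind IGFs weakly, if at all, moved both ways. Of 13 listed genes 7 had a row, with 2 called higher, 3 lower and a median of -0.10, where 47.8% of all genes were called. IGFBP7 fell from 150, 173 and 177 reads to 78, 47 and 60, or -1.36 on the log2 scale (limma: SE 0.15, adjusted p = 1.42e-09), and CTGF, a matrix-associated growth regulator, fell by 1.68. KAZALD1 rose by 0.88 and HTRA3, a secreted serine protease, by 0.50. The 4 measured genes of the list for IGF2 messenger RNA included IGF2BP1 and IGF2BP2, RNA-binding proteins that fell by 0.21 and 0.11. IGF2BP3 differed by 0.0084 (adjusted p = 0.898), and IGF2-AS had 9 to 16 reads per sample.

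Growth hormone signalling, which drives IGF1 and IGFALS in liver, was represented by 8 of 9 listed genes, since GHR had no row. In this list 5 of the 8 were called lower and 0 higher, beside 24.5% and 23.3% of all genes, with a median of -0.24. SOCS3, a feedback inhibitor of cytokine receptors, fell from 343, 405 and 374 reads to 39, 45 and 47, or -3.00 on the log2 scale (limma: SE 0.12, adjusted p = 2.65e-21). CISH and SOCS2, feedback inhibitors like SOCS3, fell by 0.94 (on 21 to 56 reads) and 0.18. The gene of the restraining phosphatase PTPN2 fell by 0.42, and STAT5A by 0.26. All of the 5 lower genes except STAT5A encode inhibitors, so the count does not describe the strength of the signal. The values of JAK2 (-0.23), STAT5B (0.088) and PTPN1 (-0.011) did not pass the test.

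FOXO factors and the genes that insulin lowers through them, a set to which IGFBP1 belongs by its known regulation, had 11 of 15 genes measured. Of these, 8 were called higher and 3 lower (23.3% and 24.5% over all genes), with a median log2 fold change of 0.28, which includes INSR and IRS2 named above. PDK4, which restrains pyruvate oxidation, rose by 2.30 from only 33, 30 and 38 reads with DMSO. PPARGC1A, a coactivator of fasting genes, rose by 0.92. The genes of the FOXO factors parted: FOXO1 rose by 0.88 and FOXO4, on few reads, by 0.82, while FOXO3 fell by 0.44. TRIB1 fell by 0.58. PCK1 and G6PC, the classic gluconeogenic members, had no row. Components of the PI3K, AKT and mTOR route downstream of the receptors were measured for 14 of 16 genes, with 6 called higher, 1 lower and a median of 0.041, so 7 of 14 were called beside 47.8% of all genes. The regulatory subunit gene PIK3R3 rose by 0.80 and TSC2 by 0.43, and RHEB fell by 0.36.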

How the data were processed

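Poly(A) RNA-seq was made of 3 fostamatinib and 3 DMSO samples, grouped by their labels. The authors aligned reads with HISAT (hg19), counted genes of GENCODE 22 with featureCounts (tool versions and strand setting not given in the sources used here), left out low genes (under 5 reads in 2 of the 3 samples, in each group) and applied TMM normalization. The deposited values are log2 CPM with 0.5 added to each count, which understates changes of genes with few reads. An identifier listed 7 times was used once.

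limma 3.58.1 (R 4.3.3, mean-variance trend) was fitted to all 16305 genes with treatment as the single term, Benjamini-Hochberg adjustment and a threshold of 0.05. The fit was also checked on simulated data, with far fewer changed genes than were called here and the same dispersion for all genes. That check therefore covers a simpler setting than these data. Alternatives were limma-voom on recovered reads, no trend, RLE or plain library sizes, at least 10 reads in every sample, 2 reads added, a limit of 1 expected false positive, a replicate block and the omission of each sample. Permutation tests used scipy 1.17.1. Positions and exon lengths are from GENCODE 44 on GRCh37 (98.7% of identifiers found), so lengths can differ from those used in counting.

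Named genes were the members, the measured genes of the lists for ligands and receptors, proteases, IGF2 messenger RNA and growth hormone, the 2 largest called rises and falls of each other list (mean of 50 reads or more in the group with more), and the 3 genes most like the most raised and most lowered member. Some genes that these rules name are not reported here. Ratios, neighbours, other genes named and the printed promoters were chosen after values were seen. The members and lists were chosen with earlier results of these data known.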

Additional observations from a re-analysis of the deposited data

How the results depend on the processing

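The calls of IGFBP1, IGFBP3 and IGFBP4 kept their direction and significance in every alternative run, including the fit without a trend, where the adjusted p-values were 0.0023, 2.79e-04 and 0.0025. Over the 6 fits that left out 1 replicate, the log2 fold change ranged from 0.377 to 0.415 for IGFBP1, from -1.08 to -1.03 for IGFBP3 and from 0.396 to 0.444 for IGFBP4. It ranged from 0.244 to 0.414 for IGFBP6, which was called only without the first fostamatinib replicate, so that 3 to 4 of the 5 genes were called, and from -0.053 to 0.0025 for IGF2R, whose sign changed without the same replicate. The number of genes called over the whole table was 6958 to 7480 in these fits, 4136 with a cut-off of 1 expected false positive by that cut-off's own construction, and 6382 to 7977 in the others, against 7794 as reported. The labels share replicate numbers between groups. Deviations from the group mean of samples with the same number correlated by 0.019, 0.011 and 0.0080 over all genes. This correlation counts genes with few reads like any other, so it cannot decide whether the numbers pair the samples. A block for the replicate number gave 7977 called genes and the same 3 calls among the 5 genes. With the length of the longest transcript the share of IGFBP4 among the binding proteins was 67.7% with DMSO and 73.1% after fostamatinib, and that of IGFBP3 10.7% and 4.15%. IGFALS had no row and was never part of this sum. The median of all genes was -0.0096 to 0.0052 on the log2 scale over the alternatives. Without the trend the calls of IRS1, VPS29, GGA2, PLIN3, IGF2BP2, SESN1, PIK3CB and APOB were lost. Over the lists other than the members, 74 of 113 genes were called without the trend and 81 with it. Over all 16305 genes, 6382 were called without the trend and 7794 (47.8%) with it. Among the neighbouring genes named below, the limma calls of TOP2A (adjusted p = 0.174) and MRPL18 (0.0520) were lost. Depth limits IGFBP6 most, at 64 to 88 reads per sample.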

Other observations

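Among the genes whose log2 CPM followed IGFBP4 most closely over the 6 samples were WDR81 (Pearson r = 0.9994) and PLD3 (0.9994), a phospholipase D family member of lysosomes. For IGFBP3 they were ARPC2 (0.9997), a subunit of the actin-nucleating ARP2/3 complex, FHL1 (0.9995) and PDCD5 (0.9993). The 6 points of each r share the split into 2 groups, and of 11480 genes compared 1347 had r over 0.95 with IGFBP4 and 1770 with IGFBP3.

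The genes next to the binding protein genes were examined after their values were seen. On the far sides of the IGFBP1 and IGFBP3 pair, the pseudogene SEPTIN7P2 differed by -0.032 on the log2 scale (adjusted p = 0.845 from limma), and TNS3, 1353278 bases beyond IGFBP3, rose by 0.35 (adjusted p = 4.72e-10). TOP2A, 25553 bases before IGFBP4 on the opposite strand, rose by 0.10 (adjusted p = 0.0174). SPRYD3, 18031 bases before IGFBP6, fell by 0.32 (adjusted p = 0.0016). MRPL18, the nearest gene with a row before IGF2R, fell by 0.16 (adjusted p = 0.0094). On the other sides, SOAT2, 1140 bases after IGFBP6, had 0, 0 and 1 reads with DMSO and 5, 6 and 4 with fostamatinib (adjusted p = 0.0046 from limma), while CCR7 next to IGFBP4 had 3 to 14 reads per sample and did not pass the test (adjusted p = 0.269).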
